A study of Mus musculus with 383 samples.

Results

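Cycling Epcam-negative tumour cells were the 39 kept cells, 14.8% of that population, in which Mki67 or Top2a reached 50 reads per 1000000 gene reads (CPM), and non-cycling cells were all its other kept cells, with both genes below that level. The groups were thus selected on the measured reads of these 2 genes. Together with 62 Epcam-positive cells they make up the 325 kept cells of the series, from 383 wells. All of them were single cells from mouse skin squamous cell carcinoma, profiled with a modified Smart-seq2 protocol that amplifies cDNA primed on the poly(A) tail and adds no molecular identifiers. Both groups shared the same genotype, which includes Lgr5CreER, p53fl/fl and Rosa26-YFP+/+. Cre in this line is driven from Lgr5, a gene of hair follicle stem cells, so that recombined cells carry YFP. They were sorted as living YFP-positive cells without Epcam, an adhesion protein of epithelia, with doublets removed by light scatter. Tumours were digested with collagenase before staining. The deposited labels name no animal, so each group was 1 sample, cells were not replicates, and no test between the groups was made.

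Proliferating cells copy their DNA in S phase and divide it in mitosis, and much of the machinery for both is transcribed mainly in the cells that need it. E2F factors switch on genes of DNA replication late in G1, and the MuvB complex with B-Myb and Foxm1 switches on genes of G2 and mitosis. Mki67 encodes the Ki-67 antigen that coats mitotic chromosomes, Top2a encodes the topoisomerase that untangles replicated DNA, and both are widely used to mark dividing cells in skin tumours.

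Of the wells, 310 were Epcam-negative and 70 Epcam-positive single cells, and the filters left out 47 and 8 of them. Gene reads per kept cell spanned 108353 to 778070 in the cycling group, with a median of 471264, and 104330 to 900492 in the non-cycling group, with a median of 410046. The well set up with 0 Epcam-positive cells held 99241 gene reads and stood apart from the Epcam-negative well with 0 cells, which held 4018. In the Epcam-positive well with 0 cells, 19 reads of Top2a (191.5 CPM) and 5 of Mki67 (50.4 CPM) lay past both cutoffs of the cycling rule. The Epcam-negative well with 0 cells had 1 read of Top2a and 0 of Mki67. Neither well passed the filters. A well of 50 Epcam-negative cells held 154897 gene reads, with 8 reads of Top2a (51.6 CPM) and 2 of Mki67 (12.9 CPM). Among the kept Epcam-negative cells Vim, the mesenchymal filament protein, was present in 100% of cycling and 97.8% of non-cycling cells, whereas Epcam was present in 2 cycling (5.13%) and 9 non-cycling cells (4.02%). A gene was called present in a cell at 5 or more of 100000 randomly drawn gene reads. Trp53 was at 9.91 CPM in cycling and 20.03 CPM in non-cycling cells, and counts over the whole gene do not show whether the floxed part was deleted.

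The 2 genes of the rule split the cycling cells. Mki67, on chromosome 7 from 135689784 to 135716361 (GRCm38, ENSMUSG00000031004.8), ranged from 0 to 1191 CPM in cycling cells (median 131.6), and it reached 46.9 CPM at most in non-cycling cells (median 0). Top2a, on chromosome 11 from 98992943 to 99024189 (ENSMUSG00000020914.17), ranged from 0 to 1341 CPM in cycling cells (median 227.05), and it reached 49.97 CPM at most in non-cycling cells (median 0). These values chose the cells and are given as a description. Both genes passed in 17 cells, Top2a alone in 17 and Mki67 alone in 5. The 3 cells nearest inside the cutoff had 61.2, 65.4 and 78.7 CPM of their higher gene, and the 3 nearest outside had 49.97, 48.2 and 46.9 CPM. Of the non-cycling cells, 77 had some reads of either gene below the cutoff, 7 of them at 40 to 50 CPM, and the rest had 0 reads of both.

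**Figure D1:**
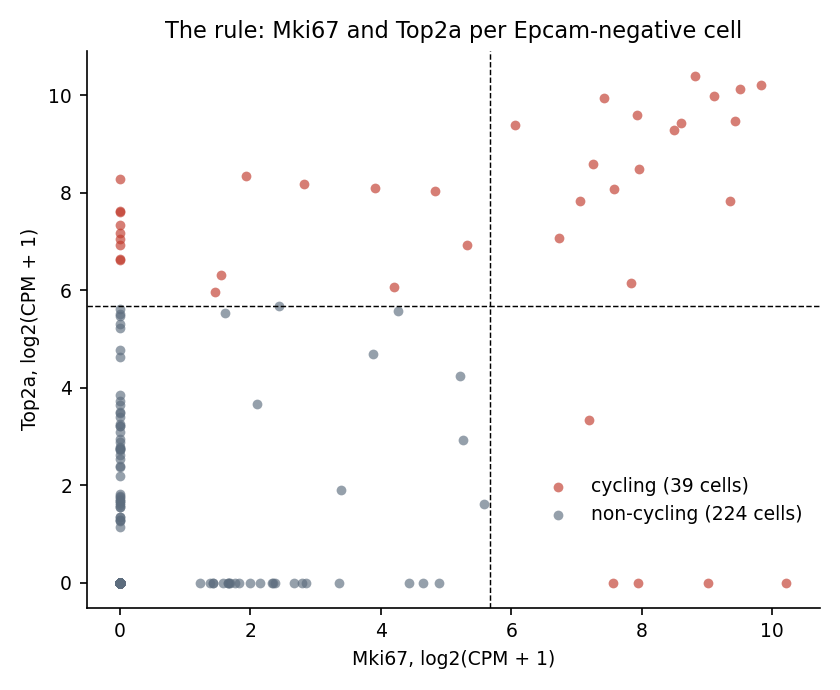
Mki67 (x axis) and Top2a (y axis) as log2(CPM + 1) in each Epcam-negative cell, with cycling cells in red and non-cycling cells in grey and the 50 CPM cutoff as dashed lines. Of the 39 cycling cells, 17 pass both cutoffs, 17 only that of Top2a and 5 only that of Mki67.

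The share of cycling cells was 14.8% (exact 95% interval 10.8 to 19.7). It was 33.9% (22.3 to 47) of the 62 Epcam-positive cells by the same rule. These intervals, like all below, cover counting error only, and the doublet gate and the discarding of wells with low cDNA yield act on such shares. With a cutoff of 20 CPM the share was 21.3%, and with both genes required it was 6.46%. By plate side, 13.6% of the cells in columns 1 to 12 were cycling, and 16.3% of those in columns 13 to 24.

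Genes were compared through the reads summed over each group, as log2 of (cycling CPM + 1) over (non-cycling CPM + 1), a scale that understates differences of low genes. A gene was measured at 10 CPM or more in either group, and a difference of 2-fold or more was called. A gene that reached 10 CPM in only 1 group had to be higher in that group. Of 9335 measured genes, 768 (8.23%) were 2-fold or more higher in cycling cells and 677 (7.25%) were 2-fold or more lower, and the median log2 ratio was 0.11. Scaling by spike-in reads moved this median to 0.57 and the share of higher genes among those called to 85.9%, against 53.1% on reads, so that ratios below are relative to the gene reads of the cells. That share was 44.1% with TMM scaling (629 genes higher, 796 lower), 45.5% with median-of-ratios scaling (644 and 771), and 33.7% when each gene was summed without the cell holding most of its reads in each group (478 and 941). Which direction holds more of the called genes thus turns with these choices.

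Genes of G2 and mitosis were higher in cycling cells, with larger ratios than the other gene lists described here. All but 3 of the listed genes were measured, each of these was higher in cycling cells and 98 were 2-fold or more higher, where 8.23% of all measured genes were. Their median log2 ratio was 3.49, against 0.11 over all measured genes. Each was also higher with TMM, median-of-ratios and spike-in scaling. Such a gene measured only through its level in cycling cells had to be higher. These counts, and those of the separate G2 and M lists below, are therefore a description. Mki67 and Top2a, which the rule used, are in none of these lists, but they are themselves genes of S phase, G2 and mitosis, so values of those phases describe how the cells were chosen.

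Among regulators of mitotic entry and exit, Pbk, a mitotic kinase, was at 123.3 CPM in cycling and 1.12 CPM in non-cycling cells, a log2 ratio of 5.87 (5.71 to 6.03). Ccna2, the cyclin A of S phase and G2, was at 191.98 CPM in cycling cells and 3.44 CPM in non-cycling cells, and it was present in 53.8% and 1.79% of them. Ccnb1, the cyclin that drives entry into mitosis with Cdk1, ranged from 0 to 468 CPM in cycling cells (median 47.4) and reached 132.1 CPM at most in non-cycling cells (median 0). The ranges of the groups overlap, and Ccnb1 was present in 46.2% of cycling and 2.68% of non-cycling cells. The kinases Aurkb and Plk1 had log2 ratios of 5.29 and 4.71, and Plk1 was present in 35.9% of cycling and 0.893% of non-cycling cells. All 23 measured G2 and M cyclins and kinases were higher in cycling cells and 22 were past 2-fold, and the median was 3.54.

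Ube2c, the ubiquitin-conjugating enzyme that works with the anaphase promoting complex, was at 347 CPM in cycling and 8.81 CPM in non-cycling cells. It ranged from 0 to 1505 CPM in cycling cells (median 146.8) and from 0 to 317 CPM in non-cycling cells (median 0). Cdc20, which activates that complex, had a log2 ratio of 4.29, and Sgo1, which protects cohesion at centromeres, one of 4.71. Of the 10 measured genes of this complex and of the spindle checkpoint, 9 were 2-fold or more higher in cycling cells.

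Cenpf, a kinetochore protein, had the highest ratio of the genes named here other than the 2 of the rule, at 170 CPM in cycling and 1.59 CPM in non-cycling cells, a log2 ratio of 6.04 (5.88 to 6.20). It was present in 21 cycling cells and in 1 non-cycling cell. All 29 measured centromere and kinetochore genes and all 32 measured spindle and cytokinesis genes were past 2-fold higher in cycling cells, and their medians were 3.13 and 3.85. Among the motors that build the spindle, Kif11 was at 43.2 CPM in cycling and 0.178 CPM in non-cycling cells. Of 7 condensin genes, which compact chromosomes, 6 were 2-fold or more higher, and Smc2 was present in 66.7% of cycling and 17.9% of non-cycling cells.

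Genes of DNA replication were higher too, with a lower median. Of 73 listed genes 58 were measured, all 58 were higher in cycling cells, and the median log2 ratio was 1.65. Past 2-fold higher were 41 of them, where 8.23% of all genes were. A gene measured only through its level in cycling cells had to be higher, so the count is a description. Clspn, a protein of the replication checkpoint, was at 36.9 CPM in cycling and 0.568 CPM in non-cycling cells, a log2 ratio of 4.59 (4.41 to 4.76). Tk1, which salvages thymidine for DNA synthesis, was at 119.3 CPM in cycling and 8.70 CPM in non-cycling cells. Mcm5, a subunit of the replicative helicase, ranged from 0 to 551 CPM in cycling cells (median 33.4) and from 0 to 586 CPM in non-cycling cells (median 0). Its highest non-cycling cell thus lay above every cycling cell, and it was present in 41.03% of cycling and 5.804% of non-cycling cells. Cdc6, which loads the helicase at origins, had a log2 ratio of 3.56 that rested on few cells, since 57.3% of its reads in cycling cells came from 1 cell and it was present in 2 of them.

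The 3 genes with the highest ratios among the G2 and M regulators, and the 3 among the origin and fork genes, that had a searched motif and a window in the RefSeq table are shown by their promoters, since both groups are textbook targets of promoter elements read in the cell cycle. The windows are those of RefSeq on build GRCm38.p6, from 250 bases before to 50 bases after a start site, on the strand of the gene, with 1 window taken per gene. Capitals mark CCAAT (the CCAAT box), TTTGAA (the CHR element of MuvB targets), and TTCCCGC or TTGGCGC (E2F elements), searched on both strands.
Ube2c, chr2:164769679-164769978, + strand: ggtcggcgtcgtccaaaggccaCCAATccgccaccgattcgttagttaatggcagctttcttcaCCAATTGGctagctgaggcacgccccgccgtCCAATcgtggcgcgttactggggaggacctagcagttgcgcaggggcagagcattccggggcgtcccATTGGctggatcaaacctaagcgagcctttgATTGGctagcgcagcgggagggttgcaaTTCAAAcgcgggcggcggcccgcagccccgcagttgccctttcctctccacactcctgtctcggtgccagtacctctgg
Bub1, chr2:127831810-127832109, - strand: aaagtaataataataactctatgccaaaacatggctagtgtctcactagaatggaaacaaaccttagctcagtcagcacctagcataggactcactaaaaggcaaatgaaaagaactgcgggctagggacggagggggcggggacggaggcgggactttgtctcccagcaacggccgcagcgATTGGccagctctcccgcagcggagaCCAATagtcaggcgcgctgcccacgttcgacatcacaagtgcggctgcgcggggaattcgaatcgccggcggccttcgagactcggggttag
Sgo1, chr17:53689266-53689565, - strand: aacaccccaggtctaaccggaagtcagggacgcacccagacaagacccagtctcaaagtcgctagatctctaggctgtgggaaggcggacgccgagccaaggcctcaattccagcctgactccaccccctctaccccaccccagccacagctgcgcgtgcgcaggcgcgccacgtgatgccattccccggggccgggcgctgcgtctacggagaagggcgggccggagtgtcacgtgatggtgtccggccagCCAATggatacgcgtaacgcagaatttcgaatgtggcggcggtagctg
Clspn, chr4:126556730-126557029, + strand: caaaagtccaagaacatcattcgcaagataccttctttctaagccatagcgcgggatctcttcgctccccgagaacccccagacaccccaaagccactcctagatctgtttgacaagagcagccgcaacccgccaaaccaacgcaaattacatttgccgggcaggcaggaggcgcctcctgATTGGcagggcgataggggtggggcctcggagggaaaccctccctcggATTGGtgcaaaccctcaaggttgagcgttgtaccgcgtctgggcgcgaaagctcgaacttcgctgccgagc
Cdc6, chr11:98907901-98908200, + strand: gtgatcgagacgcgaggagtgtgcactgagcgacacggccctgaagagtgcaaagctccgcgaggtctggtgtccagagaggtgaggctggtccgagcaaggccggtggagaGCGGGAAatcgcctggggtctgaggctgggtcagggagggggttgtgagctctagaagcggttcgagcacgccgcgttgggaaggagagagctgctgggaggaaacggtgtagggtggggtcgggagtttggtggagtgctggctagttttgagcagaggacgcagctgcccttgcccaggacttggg
Prim1, chr10:128014965-128015264, + strand: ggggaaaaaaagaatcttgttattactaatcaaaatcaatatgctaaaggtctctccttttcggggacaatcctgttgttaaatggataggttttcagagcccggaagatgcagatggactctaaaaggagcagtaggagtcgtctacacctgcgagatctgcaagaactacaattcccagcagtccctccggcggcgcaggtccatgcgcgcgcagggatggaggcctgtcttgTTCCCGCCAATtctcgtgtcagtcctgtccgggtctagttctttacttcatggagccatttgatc

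The Ube2c window held 6 matches to CCAAT, 2 of which overlap, and 1 to TTTGAA, those of Bub1 and Clspn held 2 matches to CCAAT each, and that of Sgo1 held 1. The Cdc6 window held 1 match to TTCCCGC, and in that of Prim1 a match to TTCCCGC shares 1 base with a match to CCAAT. A window was found for 88 of the G2 and M genes and for 58 of the 73 S phase genes. CCAAT and TTTGAA were both in 51.1% of the G2 and M windows, in 6.90% of the S phase windows and in 7.12% of all 27025 windows. An E2F element was in 22.7% of the G2 and M windows, in 50% of the S phase windows and in 6.93% of all windows. A match of letters is no evidence of binding, and the count of a motif in a list was not tested.

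Counting genes per cell showed how uneven the cycling cells were. Cycling cells had a median of 40 of the listed G2 and M genes at 50 CPM or more (range 2 to 79), and non-cycling cells a median of 6 (0 to 30). For the 73 S phase genes the medians were 22 (4 to 44) in cycling and 7 (0 to 42) in non-cycling cells. In G2 and M genes 22 of the 39 cycling cells lay above every non-cycling cell, and 7 lay at or below the non-cycling median. In S phase genes 1 cycling cell lay above every non-cycling cell. Of the cycling cells 27 had more G2 and M than S phase genes and 12 the reverse.

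Cells with both genes of the rule had more genes of either phase than most cells with Top2a alone. The 17 cells with both had 41 to 79 G2 and M genes (median 61), the 17 with Top2a only had 3 to 54 (median 8), and the 5 with Mki67 only had 2 to 40 (median 25). Ccnb1 was present in 15 of the 17 cells with both genes and in 1 of the 17 with Top2a only, and Plk1 in 12 and 0. The S phase gene Mcm5 was present in 12 of the cells with both and in 3 of those with Top2a only. The median cell with Top2a only thus lay near the non-cycling median of 6 G2 and M genes. Conversely, 7 non-cycling cells reached the cycling median of S phase genes, and none reached that of G2 and M genes.

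**Figure D2:**
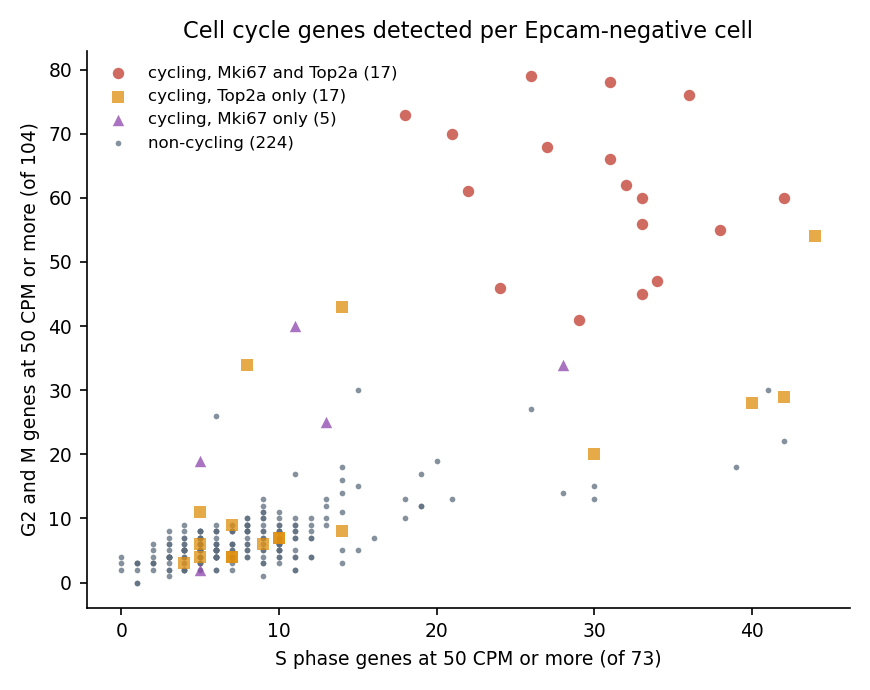
Number of S phase genes (x axis) and of G2 and M genes (y axis) at 50 CPM or more in each Epcam-negative cell, with marks for cycling cells with both genes of the rule, Top2a only and Mki67 only, and dots for non-cycling cells. The 17 cells with both genes have 41 to 79 G2 and M genes, above the highest non-cycling cell at 30.

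Between the S and M genes and their inputs stand the regulators of the G1 to S transition. Ccnd1, the cyclin D1 that couples growth signals to entry into the cycle, on chromosome 7 from 144929931 to 144939925 (ENSMUSG00000070348.5), was at 691 CPM in cycling and 238.5 CPM in non-cycling cells, a log2 ratio of 1.53 (1.50 to 1.56). It ranged from 0 to 1968 CPM in cycling cells (median 547) and from 0 to 2266 CPM in non-cycling cells (median 86.9). The ranges overlap from end to end, and 35 of 39 cycling cells lay above the non-cycling median. Of the cells with Ccnd1 present 20.8% were cycling (14.96 to 27.8), against 4.21% (1.16 to 10.4) of the 95 cells without. Its partner kinases Cdk4 and Cdk6 had log2 ratios of 0.38 and 0.25. Ccne1, the cyclin E1 of S phase entry, had a log2 ratio of 1.19, which was -0.03 in plate columns 1 to 12.

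Among inhibitors of the cycle, Cdkn1a, which encodes p21, was at 236.1 CPM in cycling and 263.4 CPM in non-cycling cells, and it was present in 56.4% and 56.7% of cells. Of 10 measured inhibitors and RB family members, 6 were higher and 4 lower in cycling cells, where 57.5% of all measured genes were higher, or 9 and 1 with spike-in scaling. Their median was 0.35, and 2 were 2-fold or more higher, where 8.23% of all genes were. Those 2 were Rbl1, the p107 relative of RB, with a log2 ratio of 2.68, and Cdkn2d, an inhibitor of Cdk4 and Cdk6, with 1.27. All 12 measured E2F and MuvB factors were higher, with a median of 1.62, and 11 of 12 were higher with TMM or median-of-ratios scaling. Past 2-fold higher were 8 of them, against the same 8.23% of all genes. Foxm1, Mybl2, E2f7, E2f8 and, of the RB family, Rbl1 were measured only through cycling cells and had to be higher. The counts of both lists are therefore a description. Foxm1, a driver of mitotic transcription, was at 63.3 CPM in cycling and 6.48 CPM in non-cycling cells.

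The 12 highest genes outside the cell cycle lists included Pclaf, a partner of the replication clamp, at 92.3 CPM in cycling and 3.87 CPM in non-cycling cells, Cdca3, a trigger of mitotic entry, with a log2 ratio of 3.79, and Hmgb2, a chromatin protein, with 2.60. Of the 14 measured genes of Myc and ribosome biogenesis, 12 were higher in cycling cells, with a median of 0.85. Past 2-fold higher were 5 of them, where 8.23% of all genes were. Among these Fbl was measured only through cycling cells and had to be higher. Dkc1, which modifies ribosomal RNA, was present in 64.1% of cycling and 26.3% of non-cycling cells, whereas Myc itself had a log2 ratio of -0.58. Replication-dependent histones were listed by gene name alone, and their mRNAs mostly lack a poly(A) tail and are poorly read by this method. Of 65 such genes 4 were measured, 2 higher (Hist1h2ae and Hist1h4d) and 2 lower (Hist1h2bc and Hist1h1c). The 2 higher genes were measured only through cycling cells and had to be higher, so no direction is read from the list.

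Cytosolic ribosomal protein genes had a median of 0.24, with 62 of 68 higher in cycling cells, where 57.5% of all genes were, and none called. Nuclear genes of oxidative phosphorylation had a median of 0.21, with 56 of 67 higher and 1 called higher, where 8.23% of all genes were. The median of all genes was 0.11. With TMM scaling the lists' medians were 0.13 and 0.11, against 0.01 for all genes. With spike-in scaling every measured gene of both lists was higher, with medians of 0.69 and 0.67, against 0.57 for all genes.

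Genes of the extracellular matrix were lower in cycling cells. All 24 listed matrix genes were measured and lower, 13 of them past 2-fold where 7.25% of all genes were, and the median log2 ratio was -1.06. Among them Lum was measured only through non-cycling cells and had to be lower. With spike-in scaling 22 of 24 were lower and the median was -0.60. Col5a2, a chain of fibrillar type V collagen, on chromosome 1 from 45374321 to 45503282 (ENSMUSG00000026042.16), ranged from 0 to 5014 CPM in cycling cells (median 258.4) and from 0 to 8144 CPM in non-cycling cells (median 899). It was present in most cells of both groups, 87.2% of cycling and 91.1% of non-cycling cells. Thbs2, a matricellular thrombospondin, was present in 46.2% of cycling and 83.04% of non-cycling cells.

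Summed over the 24 genes, matrix reads had a median of 13118 CPM in cycling cells (1427 to 131753) and 39215 CPM in non-cycling cells (662 to 248525). Of the cycling cells 8 of 39 lay above the non-cycling median. The median was 10326 CPM in the 17 cells with both genes of the rule, 28112 CPM in the 17 with Top2a only and 19056 CPM in the 5 with Mki67 only. Collagens of other families were among the 12 lowest genes beyond the lists. Col4a2 and Col4a1 of basement membranes had log2 ratios of -2.59 and -2.23, and Col12a1 one of -2.43. Eln, which encodes elastin, was at 91.7 CPM in cycling and 445 CPM in non-cycling cells, with 81% of its cycling reads from 1 cell. Lum, a small proteoglycan, was at 1.20 CPM in cycling and 106.6 CPM in non-cycling cells, and none of the 20 cells with Lum present was cycling, which allows a share of up to 16.8%.

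Markers of dermal fibroblasts were lower beside the matrix genes. Summed over 7 such genes, cycling cells had a median of 323 CPM (2.89 to 3625) and non-cycling cells 509 CPM (0 to 4668). Of the 4 measured markers Dpt and Col14a1 had log2 ratios of -1.92 and -1.20, Pdgfra one of -0.95, and Cd34 one of 0.84. Of the cycling reads 1 cell gave 55.9% for Dpt and 63.7% for Col14a1, and without that cell they were at 15.8 and 32.4 CPM in cycling cells. By plate side the log2 ratio of Col14a1 was -4.59 (columns 1 to 12) and -0.31 (columns 13 to 24). No marker of the list was at 0 reads in either group. Without the cells that had 50 CPM or more of Dpt, Dpp4, Pi16, Col14a1 or Clec3b, 31 cycling cells were left, 20% of that subset, and the matrix median was -0.47. In that subset Sfrp2, a Wnt modulator among the 12 lowest genes with a log2 ratio of -2.52, had one of 0.72. The medians there were 3.31 for G2 and M genes and 1.37 for S phase genes. Immune markers summed to 50 CPM or more in 5 cycling cells (12.8%) and 64 non-cycling cells (28.6%), with 8 and 4 of 14 markers at 0 reads, and pericyte markers in 10 cycling and 71 non-cycling cells, with 3 and 0 of 7 at 0. Endothelial markers did so in 1 cycling and 8 non-cycling cells, melanocyte markers in 1 and 13, and erythroid markers in none. The part of the immune and pericyte markers in the results was not tested.

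Of 12 measured genes of the mesenchymal cytoskeleton and surface, 9 were lower and 3 higher in cycling cells. Of these 4 were past 2-fold lower, where 7.25% of all genes were, and the median was -0.40. Among the 4, Thy1 and Fap were measured only through non-cycling cells and had to be lower, so the count is a description. For Fap 1 cell gave 95.7% of the cycling reads. With spike-in scaling 6 of the 12 genes were lower and 6 higher, with a median of 0.06. Cdh11, a mesenchymal cadherin, was present in 46.2% of cycling and 68.3% of non-cycling cells. Pdgfrb, the receptor of platelet-derived growth factor B, had a log2 ratio of -1.33, and 9.86% of the cells with it were cycling (5.50 to 15.99), against 20.7% (13.8 to 28.97) of those without. All 6 measured EMT transcription factors were lower in cycling cells, 1 by 2-fold where 7.25% of all genes were, with a median of -0.58, but 3 of 6 were lower with spike-in scaling. Among these factors Snai2 was measured only through non-cycling cells and had to be lower. Snai1, a repressor of epithelial genes, was present in 12.8% of cycling and 36.6% of non-cycling cells. Vim was nearly level, at 6488 CPM in cycling and 5677 CPM in non-cycling cells. All 13 measured TGF-beta pathway genes were lower, with a median of -0.51, and 7 of 13 were lower with spike-in scaling. Past 2-fold lower were 3 of them, against the same 7.25% of all genes.

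Levels of matrix proteases spread widely among cells. Mmp3, a stromelysin, was at 486 CPM in cycling and 7847 CPM in non-cycling cells, a log2 ratio of -4.01. It ranged from 6.19 to 8723 CPM in cycling cells (median 41.8) and from 0 to 307517 CPM in non-cycling cells (median 78.2). Few cells set both levels, since 1 cell gave 45.01% of its cycling reads and 1 cell 29.3% of its non-cycling reads. Mmp13 and Mmp10 had log2 ratios of -3.02 and -3.76, and 1 cell gave 89.1% of the cycling reads of Mmp13 and 36.5% of those of Mmp10. Without that cell Mmp13 was at 27.8 CPM in cycling cells, and by plate side its log2 ratio with all cells was -5.93 (columns 1 to 12) and -1.93 (columns 13 to 24). Of 12 measured proteases and inhibitors 9 were lower and 3 were called lower, where 7.25% of all genes were, with a median of -0.64.

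Pappa, a protease of IGF-binding proteins, was present in 3 cycling cells (7.69%) and 90 non-cycling cells (40.2%), with a log2 ratio of -3.49. Gpx3, a secreted glutathione peroxidase, was at 44.5 CPM in cycling and 574 CPM in non-cycling cells. Nox4, an NADPH oxidase, had a log2 ratio of -2.84 and Fmo2, a monooxygenase, one of -2.59. Of the growth arrest genes 8 of 10 were lower, with a median of -0.82, and 6 of 10 were lower with spike-in scaling. Past 2-fold lower were 3 of them, where 7.25% of all genes were. Gas6, a ligand of the Axl receptor, ranged from 0 to 782 CPM in cycling cells (median 2.35) and from 0 to 2035 CPM in non-cycling cells (median 44.7).

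**Figure D3:**
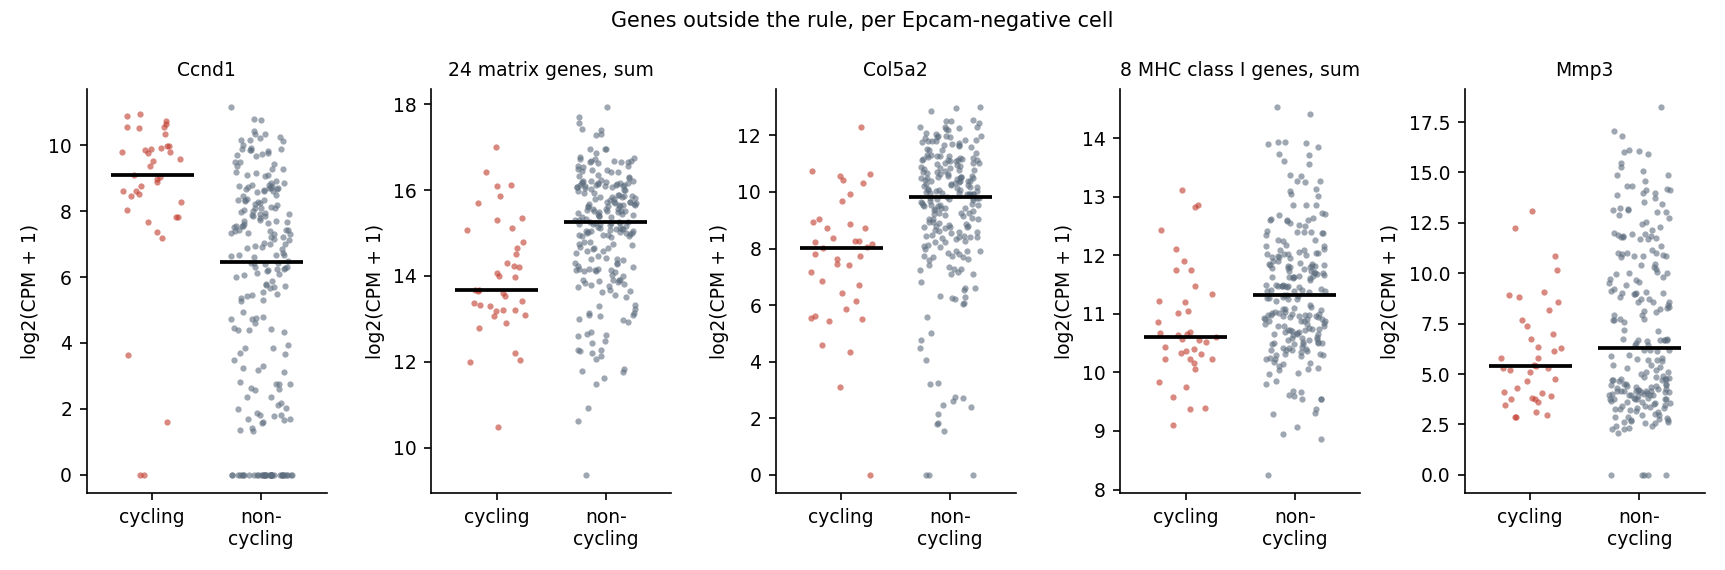
Ccnd1, the sum of 24 matrix genes, Col5a2, the sum of 8 MHC class I genes and Mmp3 as log2(CPM + 1) on the y axis in each cycling cell (red, left) and non-cycling cell (grey, right), with the median as a bar. Medians of Ccnd1 are higher and those of the matrix sum lower in cycling cells, at 547 against 86.9 CPM and 13118 against 39215 CPM, and the ranges overlap in every panel.

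Genes of antigen presentation and of the interferon response mostly had lower levels in cycling cells. B2m, the light chain of MHC class I, ranged from 295.3 to 6759 CPM in cycling cells (median 940) and from 175.1 to 13829 CPM in non-cycling cells (median 1480). It was present in every cell of both groups. All 8 measured MHC class I genes were lower, 1 of them by 2-fold where 7.25% of all genes were, with a median of -0.70, and with spike-in scaling 7 of 8 were lower. The called gene was Psmb9, with 91.3% of its cycling reads in 1 cell. Psmb9 was measured only through non-cycling cells and had to be lower. Of 10 measured interferon response genes 6 were past 2-fold lower, where 7.25% of all genes were, and the median was -1.57. Most were detected in few cells, such as Isg15, a ubiquitin-like modifier, in 2.56% of cycling and 12.9% of non-cycling cells, with 91.5% of its cycling reads in 1 cell. An interferon gene measured only through its level in non-cycling cells had to be lower. This held for Oasl2, Isg15, Ifit1 and Usp18, so the count is a description. Gbp2, an interferon-induced GTPase, was among the 12 lowest genes beyond the lists and was present in 15.4% of cycling and 38.4% of non-cycling cells. With a minimum of 50 CPM the interferon median was -0.48.

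Of 19 measured early response genes, which respond to growth signals and also to the handling of tissue, 18 were lower, 1 by 2-fold against that background, with a median of -0.57, and 12 were lower with spike-in scaling. Egr1 was at 833 CPM in cycling and 1448 CPM in non-cycling cells, and Fos was at 3340 CPM in cycling and 3345 CPM in non-cycling cells. Of 11 measured p53 targets 9 were lower and 1 was called lower, where 7.25% of all genes were, with a median of -0.17. The called gene was Trp53inp1, with 68.4% of its cycling reads in 1 cell. Trp53inp1, Sesn2 and Eda2r were measured only through non-cycling cells and had to be lower, so the counts are a description. With spike-in scaling, however, 8 of the 11 targets were higher and the median was 0.29.

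Epithelial and transition-state markers gave no single direction. Krt14, a basal keratin, was at 2345 CPM in cycling and 1738 CPM in non-cycling cells, and 17.3% of the cells with it were cycling (11.2 to 25.04), against 12.5% (7.45 to 19.3) of those without. Of 12 measured epithelial genes 9 were higher, where 57.5% of all genes were, and 3 were called higher, where 8.23% of all genes were. Among the called genes Ovol1 was measured only through cycling cells and had to be higher, with 97.5% of its cycling reads in 1 cell. The list's median was 0.52, but -0.00104 on the plate's columns 1 to 12 and 1.00 on columns 13 to 24. Krt8, a keratin of simple epithelia, was present in 28.2% of cycling and 16.96% of non-cycling cells. Vcam1, an adhesion receptor used to mark transition states, had a log2 ratio of -1.15 but was present in 35.9% of cycling and 33.5% of non-cycling cells. Itgav, an integrin chain, had a log2 ratio of 0.40, and its partner Itgb3 one of -1.69. Itgb3 was present in 2 cycling (5.13%) and 19 non-cycling cells (8.48%), and 1 cell gave 66.1% of its cycling reads. As Itgb3 was measured only through non-cycling cells, it had to be lower. Among cells with 50 CPM or more of Krt14 the matrix median was -0.98, and among those below it was -0.91.

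**Figure D4:**
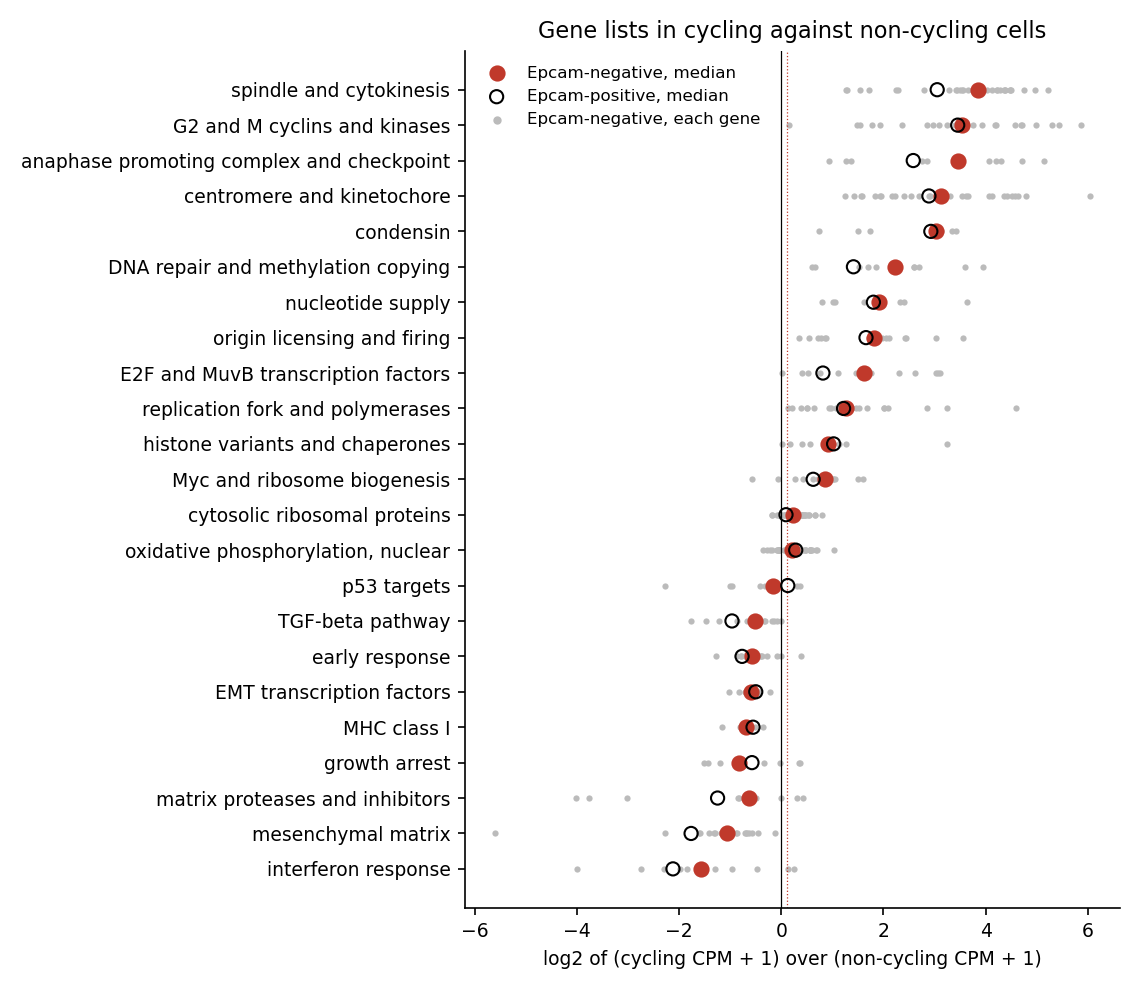
Log2 of (cycling CPM + 1) over (non-cycling CPM + 1) on the x axis for each measured gene of a list (small grey points), with the list's median in Epcam-negative cells (red) and in Epcam-positive cells (open circle), and the median of all genes as a dotted line. In Epcam-negative cells the 5 G2 and M lists have medians of 3.03 to 3.85, and of the lists plotted the interferon and matrix lists lie lowest, at -1.57 and -1.06.

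Cycling cells had more gene reads for each spike-in read. Gene reads per spike-in read, a measure of the cell's RNA, had a median of 201.4 in cycling cells (20.5 to 1079) and 146.6 in non-cycling cells (5.37 to 667), a ratio of 1.37. The ratio was 2.28 with both genes of the rule required, and 337 was the median of those 17 cells. The median was 176.5 in the 17 cells with Top2a only. It was 70.5 in the 5 cells with Mki67 only, below the non-cycling median. After each cell was drawn down to 100000 gene reads, cycling cells had a median of 5862 detected genes and non-cycling cells 5166. Mitochondrial genes took a median of 5.36% of the gene reads in cycling and 4.19% in non-cycling cells. Of the cells at or above the median of this RNA measure 19.7% were cycling (13.3 to 27.5), against 9.92% (5.39 to 16.4) of those below. Depth differed in the same direction, with 18.2% of the cells at or above the median depth cycling, against 11.5% of those below. The part of depth in the other results was not tested beyond drawing each cell down to 100000 reads.

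**Figure D5:**
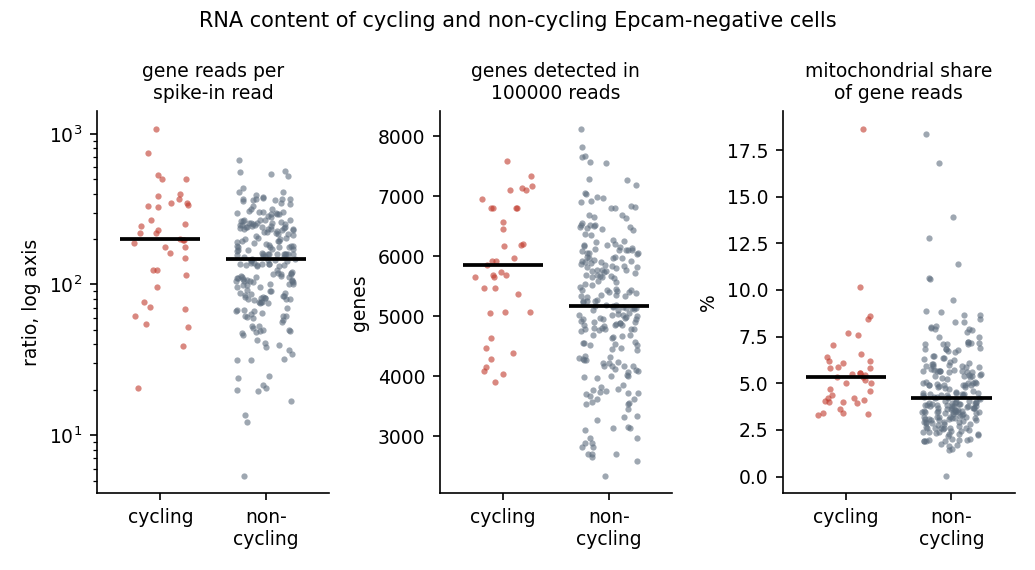
Gene reads per spike-in read (log axis), genes detected in 100000 reads and the mitochondrial share of gene reads on the y axes in each cycling cell (red, left) and non-cycling cell (grey, right), with medians as bars. Medians are 201.4 against 146.6, 5862 against 5166 and 5.36% against 4.19%, and the ranges overlap in all 3 panels.

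The same rule split the Epcam-positive cells into 21 cycling and 41 non-cycling cells, with no cell in common with the groups above, though from the same plate. The median log2 ratio of S phase genes was 1.65 in Epcam-negative cells, against 1.38 over 64 measured genes in the Epcam-positive ones. That of G2 and M genes was 3.49 in Epcam-negative cells, against 3.00 over 99 genes in the Epcam-positive ones. In Epcam-positive cells 15 of the 24 matrix genes were measured, and as a gene measured only through non-cycling cells had to be lower, no direction is read from them. The early response median was -0.77, that of MHC class I -0.55 and that of the epithelial list -0.20. The log2 ratio of Ccnd1 was 1.53 in Epcam-negative cells, against 0.56 in Epcam-positive ones. Pclaf had one of 4.26 in Epcam-negative cells, against 3.04 in Epcam-positive ones, and Gpx3 had -3.66 in Epcam-negative cells, against 1.96 in Epcam-positive ones. The Epcam-positive value of Gpx3 rested on few cells, since 1 cell gave 60.2% of its cycling reads and 1 cell 51.9% of its non-cycling reads. The difference between the populations was not tested.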

How the data were processed

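The authors deposited raw read counts for every gene and spike-in, with 1 column a well. According to the submitters' processing notes the tools were cutadapt 1.13, STAR 2.5.2b and HTSeq 0.6.0, on build GRCm38. Strand setting and annotation release were not given in those notes, so overlapping and near-identical genes are uncertain. GENCODE vM21 named 49326 of 49585 gene identifiers.

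A cell was kept with at least 100000 gene reads, 2000 genes, at most 20% mitochondrial and at most 50% spike-in reads. Its CPM is over gene reads. Ratios compare summed reads with a pseudocount of 1 CPM. Intervals are 95% (Clopper-Pearson for shares, conditional binomial for ratios), and as reads carry no molecular identifiers they cover counting error only. No doublet caller was run. The ratio code was tested on simulated data. Python 3.11.15, scipy 1.17.1 and edgeR 4.0.16 (TMM) were used.

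Named genes were, per list, the 2 to 4 largest ratios and members 2-fold or more against the list's direction. Beyond the lists they were the 12 highest, the 12 lowest and the 12 highest outside cell cycle lists, among genes at 20 CPM or more, present in 30% of the cells of the higher group, with the same direction on both sides of the plate and no cell giving over 25% of the reads of the higher group. A fixed set was always named (such as Krt14, Vim and Ccnd1), and Myc and Fos were chosen after their values were seen. The members and lists were chosen with earlier results of these data known. Part of the genotype and 1 gene are not reported here.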

Additional observations from a re-analysis of the deposited data

Results flagged for a closer look

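Past 2-fold in both sorted populations, 4 named genes had log2 ratios of cycling over non-cycling cells of opposite sign, and the difference between them was not tested. Isg15 was at -2.74 in Epcam-negative cells, where 91.5% of its cycling reads came from 1 cell, and at 2.83 in Epcam-positive cells. Ovol1 was at 2.42 in Epcam-negative cells, with 97.5% of its cycling reads in 1 cell, and at -1.24 in Epcam-positive cells. Lgr5 was at 1.41 in Epcam-negative cells, with 84.6% of its cycling reads in 1 cell, and at -2.21 in Epcam-positive cells. Gpx3 was at -3.66 in Epcam-negative cells and at 1.96 in Epcam-positive cells. In the Epcam-positive cells 1 cell gave 60.2% of its cycling reads and 1 cell 51.9% of its non-cycling reads, at 21.2 and 4.70 CPM. Among the 47 Epcam-negative cells left out by the filters, 6 met the cycling rule.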

How the results depend on the processing

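Over 22 alternatives, 4 of them chosen after seeing the data, all but 7 of the named genes at 2-fold or more kept their direction. Most were named for large ratios in these same cells, so the count is a description. Those beyond the lists also had to share direction on both plate sides, with no cell over 25% of the higher group's reads. Alternatives by plate side could thus not turn them, and leaving out top cells hardly could. Of 3608 values of all named genes, 1504 were counted as the same, 2091 as moved and 13 as reversed. With 1 sample a group no replicate could be left out. No paired analysis was possible because the results come from no test and replicate numbers only name cells. The share of cycling cells was 21.3% at a cutoff of 20 CPM, 6.46% with both genes required and 20% without cells with a dermal fibroblast marker. The S phase median was 2.02 with both genes, 2.09 with spike-in scaling, 1.17 with a pseudocount of 10 CPM, 1.04 in cells with 50 CPM or more of Krt14 and 2.27 in cells below. The G2 and M median was 3.97 with both genes, 3.91 against cells with 0 reads of both, 3.95 with spike-in scaling and 2.22 with a pseudocount of 10. The matrix median was -0.60 with spike-in scaling, -1.35 per gene without the cell with most reads in each group and -0.47 without cells with a fibroblast marker. Genes past 2-fold higher were 13.4% of those measured with both genes, 12.5% in plate columns 1 to 12, 22% with spike-in scaling, 4.22% with a pseudocount of 10, 5.47% without top cells and 13.7% in Krt14-low cells, against 8.23% as reported. Genes past 2-fold lower were 13.1% with both genes, 12.7% in columns 13 to 24, 3.61% with spike-in scaling, 3.29% with a pseudocount of 10, 4.57% at a minimum of 50 CPM and 13.1% in Krt14-low cells, against 7.25%. With no minimum level 1352 genes were past 2-fold higher and 1961 lower, against 768 and 677. Without top cells 33.7% of the genes past 2-fold were higher. The RNA ratio was 2.28 with both genes. Signs turned for Ccne1 (-0.0286, columns 1 to 12), Psmb9 (0.00333, both genes), Krt5 (-0.36, Krt14-low cells), Dpt (0.27) and Sfrp2 (0.72, like Dpt without fibroblast-marker cells), Ovol1 (-1.85 with both genes, -1.44 without Epcam cells, -0.19 in Krt14-low cells, -1.91 in RNA-rich cells) and Lgr5 (-1.80 with both genes, -0.18 without Epcam cells, -0.12 in columns 13 to 24, -0.68 without top cells). List medians turned sign for p53 targets and the mesenchymal cytoskeleton and surface (0.29 and 0.06, spike-in scaling), epithelial genes (-0.15, RNA-rich cells), CDK inhibitors (-0.14, minimum of 50 CPM), dermal fibroblasts (0.05, without fibroblast-marker cells), and the lists of G1 and S cyclins, histones, glycolysis, hair follicle and pericytes. The cause was not tested. Genes near 10 CPM rest on few cells, so their ratios are the least precise.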
